A study of Mus musculus with 2 samples.

Results

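The 10 immediate early genes Fos, Fosb, Jun, Junb, Jund, Egr1, Nr4a1, Nr4a3, Atf3 and Dusp1 were taken by symbol from 55536 named genes in total RNA of mouse gastrocnemius, the large calf muscle. All 10 were found, with 1 gene identifier each. They were selected on measured values of these same libraries, namely their levels and the ratio between the 2 libraries, so both are given as descriptions with no test. Both libraries, biological replicates 1 and 2 of a single group, came from female B6CASTF1/J mice aged 10 days, which are F1 hybrids of C57BL/6J and CAST/EiJ. No treatment is named, each library was made from 300 ng of RNA, ribosomal RNA was reduced, and synthetic ERCC RNAs were added as spike-ins. The labels give separate biosamples that share 1 donor record and do not say how many animals each held, so the spread between the libraries may be partly technical. No sample is labelled by an activity or stimulus, and with 1 library on each side no test between them exists.

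Immediate early genes are transcribed within minutes of a signal, without new protein being made. Serum response factor with its partners and the cAMP-responsive factor CREB switch them on after growth factors, calcium entry, stretch or hormones. In muscle, contraction, injury and beta-adrenergic signals are known to do so. Jun and Fos proteins pair to form the transcription factor AP-1, EGR1 is a zinc finger factor, NR4A1 and NR4A3 are nuclear receptors that act without a known hormone, ATF3 is a stress-induced factor of the ATF/CREB family, and DUSP1 is a phosphatase that switches MAP kinases off.

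Promoter sequences are shown for Nr4a1, Nr4a3 and Dusp1, the members with the highest ratio of replicate 2 over replicate 1, and for Fos, whose ratio was near that of most genes. The lines hold the part of the 250 bases before the RefSeq start that lies before every annotated start of the gene there, which leaves 98 bases for Nr4a3, 203 for Dusp1 and 250 for the others. They are written 5′ to 3′ on the gene's strand, in build GRCm38.p6, at chr15:101266596-101266845 (plus strand), chr4:48045055-48045152 (plus), chr17:26508520-26508722 (minus) and chr12:85473640-85473889 (plus). Capitals mark TGACG on either strand (CGTCA when read on this one), the core of the cAMP response element that CREB binds, the full element TGACGTCA, which contains the core on both strands, and TATAAA on the gene's strand.
Nr4a1: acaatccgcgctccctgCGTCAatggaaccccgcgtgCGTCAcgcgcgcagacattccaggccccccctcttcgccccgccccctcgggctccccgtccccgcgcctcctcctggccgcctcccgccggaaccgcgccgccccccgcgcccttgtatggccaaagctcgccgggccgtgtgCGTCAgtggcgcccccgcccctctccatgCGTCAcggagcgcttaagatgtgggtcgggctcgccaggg
Nr4a3: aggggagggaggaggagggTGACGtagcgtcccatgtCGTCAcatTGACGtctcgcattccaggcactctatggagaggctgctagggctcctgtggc
Dusp1: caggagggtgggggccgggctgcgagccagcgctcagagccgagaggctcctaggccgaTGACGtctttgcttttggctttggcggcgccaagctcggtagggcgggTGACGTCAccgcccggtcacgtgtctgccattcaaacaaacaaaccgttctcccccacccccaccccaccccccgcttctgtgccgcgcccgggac
Fos: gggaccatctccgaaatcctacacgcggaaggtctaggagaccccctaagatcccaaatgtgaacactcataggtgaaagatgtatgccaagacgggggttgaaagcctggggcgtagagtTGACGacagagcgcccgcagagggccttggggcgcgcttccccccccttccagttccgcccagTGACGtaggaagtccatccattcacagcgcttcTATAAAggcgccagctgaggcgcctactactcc

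In windows from 250 bases before to 50 after the start, Nr4a1 and Nr4a3 each held 4 copies of TGACG and Dusp1 held 3, of which 2 overlap in its full TGACGTCA 143 to 136 bases before the start. Of the Nr4a3 copies, 1 lies beyond its printed stretch. Fos held 2 copies and a TATAAA 33 to 28 bases before the start. Fosb, Junb and Atf3 held 1 copy of TGACG each, and Jun and Jund held none. Junb also held a TATAAA, which begins at its RefSeq start. Among 32544 RefSeq promoter windows of 300 bases, 20.9% held at least 1 copy of TGACG and 1.04% held 3 or more. The full TGACGTCA was held by 1.8% and TATAAA by 8.28%. These windows were not matched to those of the members in base composition. G and C made up 72.3% of the Nr4a1 window, 67% for Dusp1, 64.7% for Nr4a3 and 58.7% for Fos. The part of base composition in the copy numbers was not tested. The CArG box bound by serum response factor and the AP-1 motif TGANTCA were searched on both strands as exact patterns. Neither was found in the 9 members with a window, against 1.64% and 7.79% of all windows. Sites that differ from these patterns by a letter were not counted. At such shares few of 9 windows would hold either motif, so nothing is read from their absence. Egr1 had no window, and sites more than 250 bases before the start were not searched. Such matches describe letters in a short window, and the RefSeq start of Jund lies 1210 bases from the nearest annotated start of that gene in GENCODE M21. Nr4a1, Atf3 and Dusp1 also have annotated starts further upstream, among them that of Atf3-203, which were not searched. The Nr4a1 window lies at the start of Nr4a1-201, which held 68% and 73% of the gene's abundance by RSEM-format values. By kallisto-format values this form held 0.303% and 0.000579%, while Nr4a1-202, which differs at its 5′ end, held 90.7% and 79.3%. The motifs were chosen with the ratios known.

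Levels are given as TPM, a relative transcript abundance per effective length that can be compared between genes. The libraries held 35925081 and 39969380 expected counts, of which spike-ins took 0.72% and 0.798%. All 8 muscle fibre markers were detected, led by Acta1, Mylpf and Ckm, with summed TPMs of 75369 and 89451. The libraries stood apart in markers of other tissues. Bone and cartilage markers had summed TPMs of 260 in replicate 1 and 13.8 in replicate 2, where Bglap, Ibsp and Col10a1 of the 8 listed had 0 counts. Col2a1, at 14.7 and 11.5, and Acan, at 2.24 and 1.54, differed far less. They made up most of the sum in replicate 2. Neutrophil markers had 54.8 and 0.81, with 2 of 6 at 0 counts in replicate 2, adipocyte markers 162 and 123, and erythroid markers 1270 and 976. Most of the adipocyte sums came from Fabp4, at 145 and 116, while Plin1 stood at 6.09 and 1.8. Most of the erythroid sums came from Hba-a1 and Hbb-bs, while Slc4a1 stood at 4.73 and 0.21. The other lists had summed TPMs of 5503 and 3463 for fibroblast, 193 and 169 for endothelial, 383 and 453 for pericyte and smooth muscle, 39.9 and 32.4 for satellite cell, 79.8 and 61.3 for macrophage and 421 and 360 for Schwann cell markers. Of the fibroblast sums, Col1a1 held 3542 and 1887. In whole tissue, fewer cells of a type and less RNA per cell cannot be told apart.

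Of the members, 8 reached the detection level of TPM 1 in both libraries, while Nr4a3 stood at 0.96 and 1.26 and Fosb at 0.74 and 0.29. Of 22015 nuclear protein coding genes 52.3% were detected.

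The highest levels were those of the Jun family members Jund and Jun. Jund (ENSMUSG00000071076.6, chromosome 8, 70698949 to 70700616, plus strand of mm10) had a TPM of 57.7 in replicate 1 and 62.7 in replicate 2, a mean of 60.2 ± 3.51 (SD, n = 2). Jun (ENSMUSG00000052684.4, chromosome 4, 95049034 to 95052222, minus strand) had 44.4 and 39.8, a mean of 42.1 ± 3.28. These genes, both with a single exon, together held 65% and 58.8% of the summed TPM of the 10 members, which was 157 and 174. The third family member, Junb (ENSMUSG00000052837.6, chromosome 8, 84974484 to 84978718, minus strand), stood much lower at 3.96 and 3.25.

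**Figure D1:**
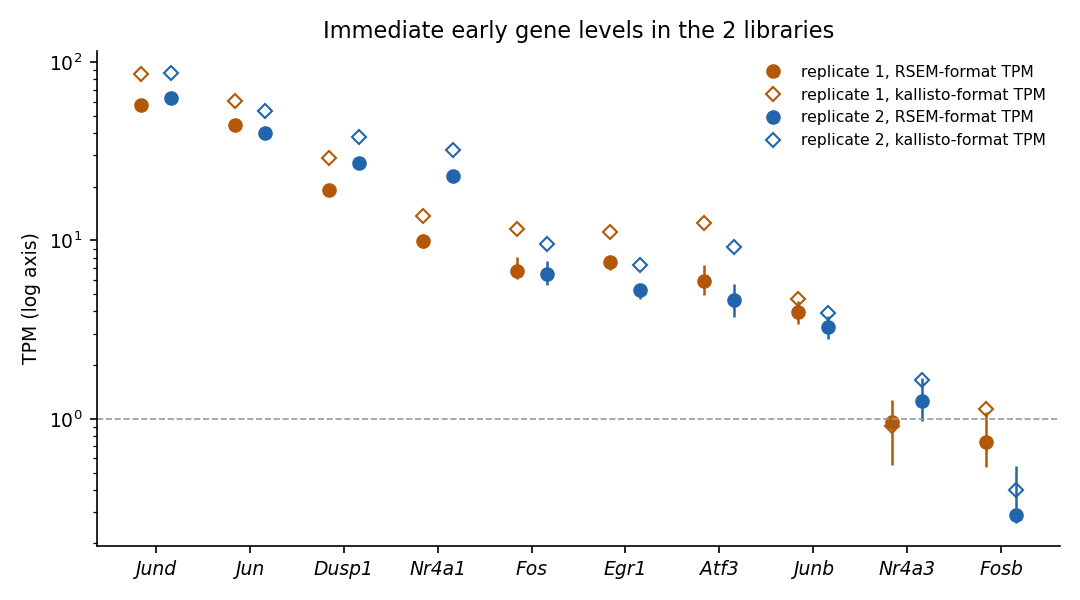
TPM (log axis) of the 10 genes in replicate 1 (orange) and replicate 2 (blue), with filled circles for RSEM-format and open diamonds for kallisto-format values. Vertical lines are the bounds around TPM given in the deposited gene tables and the dashed line is TPM 1; Jund and Jun lead, and Nr4a1, at 9.97 and 23.1, shows the widest gap between libraries among the detected genes.

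The Fos genes, the partners of Jun in AP-1, were far less abundant. Fos (ENSMUSG00000021250.13, chromosome 12, 85473890 to 85477273, plus strand) had TPMs of 6.75 and 6.48, 6.62 ± 0.191 (SD, n = 2). Fosb (ENSMUSG00000003545.3, chromosome 7, 19302696 to 19310051, minus strand) rested on 52 and 33 counts. Fosl2, a Fos-related gene that is not among the members, was above Fos at 14.6 and 13.3, and Fosl1 had 1 count in replicate 1 and 0 in replicate 2. Summed over Jun, Junb and Jund, the Jun family had a TPM of 106 in each library, against 22.1 and 20 for Fos, Fosb, Fosl1 and Fosl2. The log2 ratio of the families was 2.26 and 2.4, a mean of 2.33 ± 0.1 (SD, n = 2), or 4.79-fold and 5.28-fold. As a ratio of expected counts, which ignores length, it was 1.40.

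The remaining factors spanned a wide range. Nr4a1 (ENSMUSG00000023034.7, chromosome 15, 101254269 to 101274795, plus strand) had TPMs of 9.97 and 23.1, and Nr4a3 (ENSMUSG00000028341.9, chromosome 4, 48045153 to 48086447, plus strand) stood at 0.96 and 1.26. The third receptor of the family, Nr4a2, stood at 1.01 and 1.07. Egr1 (ENSMUSG00000038418.7, chromosome 18, 34859823 to 34864984, plus strand) had 7.53 and 5.25, above its relatives Egr2 at 1.88 and 1.39 and Egr3 at 1.15 and 0.82. No reads were counted for Egr4, and a floor of 3 counts puts the limit at 0.0835 and 0.0751 CPM, for counting error only. Atf3 (ENSMUSG00000026628.13, chromosome 1, 191170296 to 191218039, minus strand) had 5.93 and 4.66. The phosphatase gene Dusp1 (ENSMUSG00000024190.7, chromosome 17, 26505590 to 26562128, minus strand) had 19.2 and 27.3, the third highest level of the set.

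By mean TPM the order was Jund, Jun, Dusp1, Nr4a1, Fos, Egr1, Atf3, Junb, Nr4a3 and Fosb. The ranges of neighbours over the libraries overlapped for Dusp1 and Nr4a1, for Fos and Egr1, and for Egr1 and Atf3, so these neighbours did not differ beyond their spread. Within each library Dusp1 was above Nr4a1 and Egr1 above Atf3, while Fos and Egr1 changed places. The ranges of all other neighbours were apart, although those of Nr4a3 and Fosb overlapped in the kallisto-format tables, where Atf3 was also above Egr1 in both libraries. The median TPM of detected nuclear protein coding genes was 10.1 and 8.57, so Fos, Egr1, Atf3 and Junb lay below the typical detected gene and Jund, Jun and Dusp1 above it in both libraries. Kallisto-format TPMs of the members were 1.16 to 2.06 times the RSEM-format ones, around the median of 1.45 over detected nuclear protein coding genes, with Atf3 at the top. The other genes closest in level over the 2 libraries, by distance on the log2(TPM + 1) scale, were Aamdc and Ppp1r3a for Jund (0.012 and 0.0215), Myl6b and Lgmn for Jun (0.01 and 0.0119), and Snurf and Homer1 for Dusp1 (0.0888 and 0.12). With 2 libraries this likeness says only that the levels were close.

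The 2 libraries differed most in the nuclear receptor genes and in Dusp1, while Fos, Jun, Junb and Egr1 were each within 1.19-fold between libraries at the scaling used for the ratios. Ratios of replicate 2 over replicate 1 are of expected counts after TMM scaling, which aligns the bulk of genes, with a 95% exact binomial interval (Clopper-Pearson) that covers counting error only. Nr4a1 had 628 and 1591 counts, a log2 ratio of 1.43 (1.3 to 1.57), 2.7-fold. Nr4a3 had 68 and 151 counts, a log2 ratio of 1.23 (0.82 to 1.68), 2.35-fold. These receptors were the members at least 2-fold apart, both higher in replicate 2, among the 9 with a mean count of at least 100. Of all 11760 named genes at that count, 0.213% were at least 2-fold higher in replicate 2 and 0.808% in replicate 1, 1.02% in all. Since the members were chosen with this contrast known, nothing is read from that count.

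Dusp1 had 934 and 1606 counts, a log2 ratio of 0.87 (0.75 to 0.99), 1.83-fold. Ranked among all 11760 genes from the highest ratio down, Nr4a1 stood at rank 12, Nr4a3 at 19 and Dusp1 at 40. Jund followed with 2554 and 3155 counts at 0.39 (0.32 to 0.47), which 9.65% of genes exceeded. Of the others, Fos, Jun and Junb were exceeded by 26.3%, 44.6% and 64.4% of genes, Atf3 by 80.8%, Egr1 by 88.8% and Fosb, whose own mean count was below 100, by 97.2%. Fos had 317 and 352 counts, a ratio of 0.24 (0.02 to 0.46) that turned to -0.15 with spike-in totals. Jun had 3871 and 3944 counts, a ratio of 0.12 (0.05 to 0.18) that turned to -0.28 with spike-in totals. These are the founding members of AP-1, and neither kept a direction across scalings. Junb had 191 and 178 counts, a ratio of -0.01 (-0.31 to 0.29) that turned to 0.15 with kallisto-format counts. Atf3 had 277 and 235 counts, a ratio of -0.15 (-0.4 to 0.11). Egr1, with 655 and 519 counts, had -0.25 (-0.41 to -0.08), so its interval lay below 0 at this scaling. Fosb had the lowest ratio of the 10, -0.56, with a wide interval of -1.24 to 0.09. Beside these ratios, the bone and cartilage markers with a mean count of at least 100 were lower in replicate 2 in 6 of 6 cases. So were neutrophil markers in 3 of 3, adipocyte markers in 4 of 4 and erythroid markers in 4 of 4. The sizes were uneven: Col2a1 stood at -0.05 and Acan at -0.26, while Ibsp stood at -11.85. Fabp4 stood at -0.09 and Plin1 at -1.77, and Hba-a1 at -0.03 and Slc4a1 at -3.92. Muscle fibre markers were higher in 8 of 8 with TMM and in 6 of 8 with spike-in totals, at medians of 0.5 and 0.11. The medians of the other lists lay between -0.1 for macrophage and 0.12 for pericyte and smooth muscle markers with TMM, and all below 0 with spike-in totals. Their part in the ratios of the members was not tested.

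**Figure D2:**
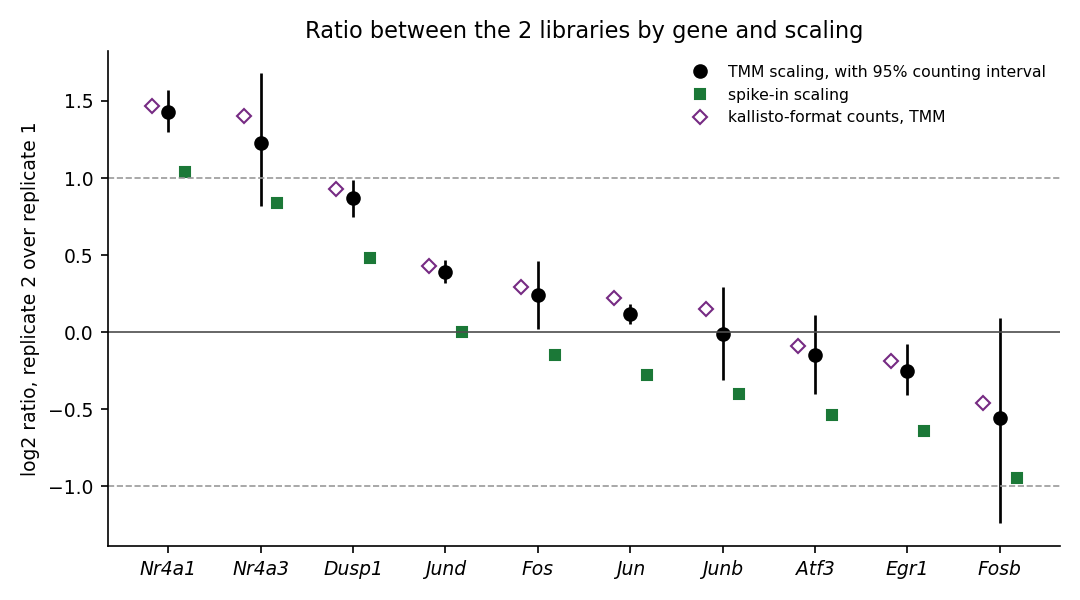
Log2 ratio of replicate 2 over replicate 1 for each gene, with TMM scaling (black, 95% counting interval), spike-in scaling (green squares) and kallisto-format counts with TMM (open diamonds). Dashed lines mark 2-fold; Nr4a1 at 1.43 passes it in all 3 settings shown, Nr4a3 falls from 1.23 to 0.84 with spike-ins, and Fos and Jun lie above 0 with TMM and below 0 with spike-ins.

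Spike-in totals, used as a check, lowered the ratio of each member by about 0.39 and the median over all genes from 0.08 to -0.31. At least 2-fold higher in replicate 2 were then 0.111% of genes, with Nr4a1 as the single member, and in replicate 1 2.32%, with no member. Nr4a1 stood at 1.04, Nr4a3 at 0.84, Dusp1 at 0.48, Jund at 0.00, and the other 6 between -0.15 and -0.95. With TMM 6 members were above 0 and 4 below, with spike-ins 4 and 6; 62.7% and 9.83% of all genes were above 0. With either scaling 6 of the 10 lay above the median of all genes. The median of the members was 0.18 with TMM and -0.21 with spike-in totals. On the TPM scale the ratio of Nr4a3 was 0.39, with an effective length of 2519 bases in replicate 1 and 3735 in replicate 2, which follows the mix of its transcripts. For Fosb, with 2497 and 3533 bases, it was -1.35.

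**Figure D3:**
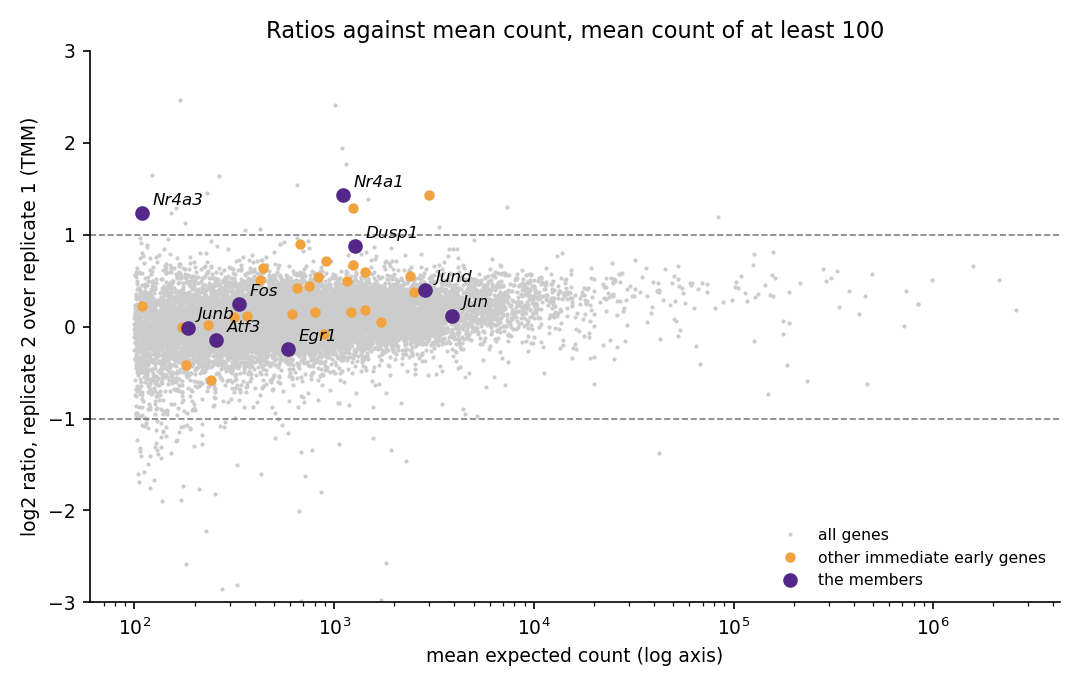
Log2 ratio of replicate 2 over replicate 1 (TMM) against the mean expected count (log axis) for genes whose mean count was 100 or more, with the members in purple, the other immediate early genes in orange and all genes in grey. Dashed lines mark 2-fold and 23 genes beyond 3 on the log2 scale are not drawn; Nr4a1, Nr4a3 and Dusp1 lie at the upper edge of the grey cloud, and Fosb is not shown because its mean count was 42.5.

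Within Dusp1 the spliced and the intron-containing transcripts differed in opposite directions. Protein coding forms, led by Dusp1-202, had 718 counts in replicate 1 and 1488 in replicate 2, a log2 ratio of 1.14. The retained intron forms Dusp1-203 and Dusp1-204 had 216 and 118 counts, a ratio of -0.77. The retained intron share of the gene's abundance was thus 29.8% in replicate 1 and 10.2% in replicate 2, and the kallisto-format tables gave 27.8% and 9.89%. In Nr4a1 both classes were higher in replicate 2. The retained intron form Nr4a1-204 had 9.22 and 50.8 counts, a ratio of 2.49 against 1.4 for the coding forms, and its share was 4.13% and 8.62%. In total RNA such reads may come from unspliced precursor as well as from stable transcripts, and the tables do not part them.

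**Figure D4:**
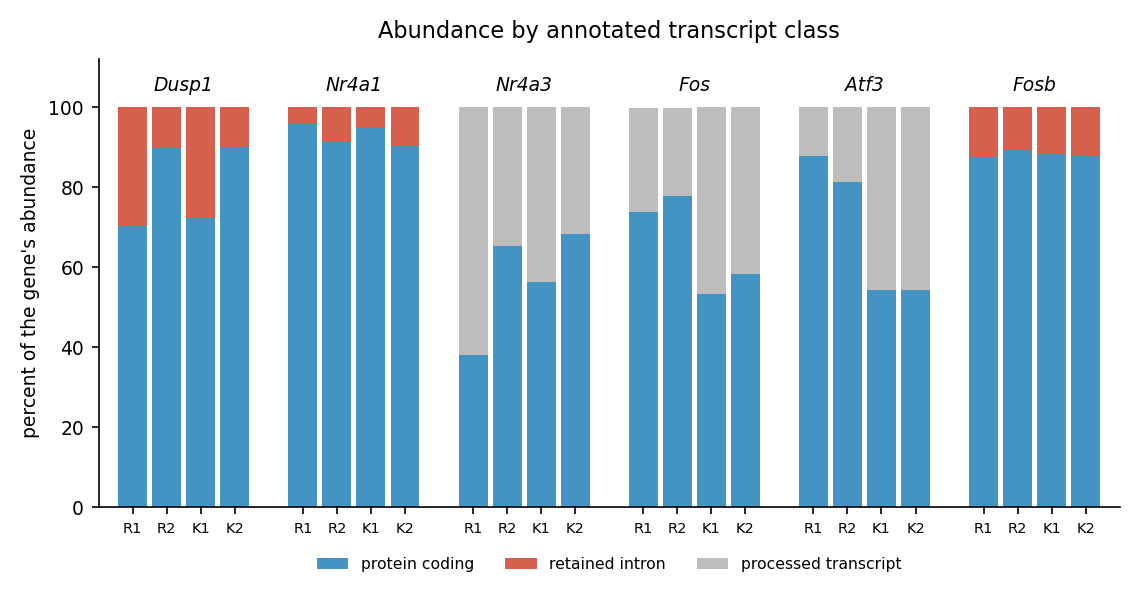
Percent of each gene's abundance by annotated transcript class, with R1 and R2 for replicates 1 and 2 in the RSEM-format tables and K1 and K2 for the kallisto-format tables. The retained intron share of Dusp1 is near 30 in R1 and near 10 in R2 with both kinds of table, while the classes of Fos, Atf3 and Nr4a3 differ between the kinds of table.

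The transcript forms of some members differed between the 2 kinds of table. Nr4a1-201 and Nr4a1-202 encode the same 601 residues and differ at their 5′ end; the former held 68% and 73% of abundance in the RSEM-format tables, the latter 90.7% and 79.3% in the kallisto-format ones. Atf3-203, of 181 residues, held 65% and 50.9% by RSEM against 0.000291% and 39.1% in kallisto format, where the processed transcript Atf3-202 led with 45.6% in each library. The leading transcript was the same in both kinds of table for 6 of the 10 genes, namely Fos, Jun, Junb, Jund, Egr1 and Dusp1. Fos-201, the form that encodes the 380-residue protein, held 73.8% and 77.8%. Egr1-202 held 89.8% and 90%. For Fosb, no coding form had counts in both libraries in the RSEM-format tables. The form with 237 residues, Fosb-206, which has the length of the truncated DeltaFosB protein, had 8.49 counts in replicate 1 and 0 in replicate 2, too few to describe its use.

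Most members had few exons, a property that their choice did not use. The leading coding transcript had 1 exon in 3 of 10 members and at most 4 exons in 8 of 10, against 2.57% and 22% of 11491 other detected nuclear protein coding genes, whose median was 9 exons. Nr4a1 had 7 exons and Nr4a3 8. The span on the genome was under the median of the others, 22016 bases, in 8 of 10 members, with Nr4a3 at 37334 and Atf3 at 47744 bases above it. All these structure values are of the form that led by RSEM-format share. For Atf3, Nr4a3, Nr4a1 and Fosb another form led by kallisto-format share. The span of Atf3 is that of Atf3-203, whose kallisto-format share was 0.000291% in replicate 1 and 39.1% in replicate 2. The transcript was shorter than their median of 2782 bases in 6 of 10, and Nr4a3 at 5068 bases was above the upper quartile of 4347. The pentamer ATTTA, the core of the AU-rich elements through which short-lived messages are broken down, was present in the 3′ UTR of all 10 members and of 62.8% of the other genes. The 3′ UTRs ran from 485 bases in Junb to 3095 in Nr4a3, against a median of 875 over the other genes. Its density per kilobase was 5.8 in Dusp1, 5.52 in Nr4a1, 4.91 in Fos, 4.12 in Junb and 3.24 in Jun. The pentamer was sparser in Atf3 at 2.53, Jund at 1.88, Egr1 at 1.68, Nr4a3 at 1.62 and Fosb at 0.43. Over the other genes the median density was 1.19 and the upper quartile 2.59. The longer element TTATTTATT was found in Dusp1, with 2 copies, and in Fos, with 1, and in 6.58% of the other genes. These are counts of letters on the transcript strand and say nothing of turnover in these samples.

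A list of other immediate early genes, drawn up with earlier results known, included further genes that were higher in replicate 2. Of 38 other immediate early genes 32 were detected, led by Sgk1, a kinase gene induced by glucocorticoids, at TPMs of 38.6 and 81.3, by Rhob, a small GTPase, at 35.6 and 38.2, and by Homer1, a synaptic and muscle scaffold protein, at 19.9 and 25.3. Of the 27 with a mean count of at least 100, 23 had a ratio above 0 and 4 below, with a median of 0.38. Over all genes 62.7% were above 0 and the median was 0.08. With spike-in totals 13 of the 27 were above 0 and the median was -0.02, against 9.83% and -0.31 over all genes. The genes at least 2-fold apart were Sgk1 at 1.43 and the clock gene Per1 at 1.29, both higher in replicate 2, where 0.213% of all genes passed; with spike-in totals Per1 no longer did. At 1.5-fold, 7 were higher in replicate 2 and 0 in replicate 1, against 1.88% and 2.57% of all genes; the additional 5 were Cebpb at 0.9, Trib1 at 0.71, Ccn2 at 0.67, Nfil3 at 0.63 and Rcan1 at 0.59. With spike-in totals 2 of the 27 stayed 1.5-fold higher in replicate 2, Sgk1 at 1.03 and Per1 at 0.89, and 2 were 1.5-fold higher in replicate 1, Gadd45b at -0.81 and Socs3 at -0.97, against 0.221% and 14.9% of all genes.

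No gene of the other 4 lists was at least 2-fold apart at a mean count of at least 100, against 1.02% of all genes. Of all genes at that count 62.7% had a TMM ratio above 0, with a median of 0.08. Of 15 regulators of the serum response factor, ternary complex and CREB families 14 were detected, led by Elk4 at TPMs of 38.1 and 30.8, Srf at 33.4 and 30.8, and Atf1 at 24.8 and 22.9. At that mean count 8 were above 0 and 6 below, with a median of 0.03 and a range of -0.13 to 0.45. Of 16 MAP kinases and nuclear kinases 13 had that count, among them Mapkapk2 at 75.6 and 83 and Rps6ka3 at 40.8 and 41. They had 10 ratios above 0 and 3 below, a median of 0.21 and a range of -0.08 to 0.45.

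Of 17 other phosphatase and feedback genes 14 had that count, led by Zfp36l1 at 40.1 and 33.7, Spry1 at 27.1 and 26.5, and Spry2 at 19.7 and 17.4. They had 9 ratios above 0 and 5 below, a median of 0.07 and a range of -0.28 to 0.7. The highest, Dusp8, a phosphatase of MAP kinases, was the 1 gene of these lists at least 1.5-fold apart, with 0.31 under spike-in totals. Of 13 other AP-1 family genes 8 had that count, led by Maf at 48.4 and 46.3, Atf7 at 35.2 and 28.1, and Mafg at 17.5 and 14.1. They had 4 ratios above 0 and 4 below, a median of 0.02 and a range of -0.31 to 0.37. With spike-in totals the medians of the 4 lists, in this order, were -0.36, -0.19, -0.32 and -0.37, with 1, 2, 1 and 0 ratios above 0. Over all genes the median was then -0.31, with 9.83% above 0. The genes then 1.5-fold higher in replicate 1 numbered 2 each among the feedback and the AP-1 genes and 0 in the other lists. Of all genes 14.9% were.

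**Figure D5:**
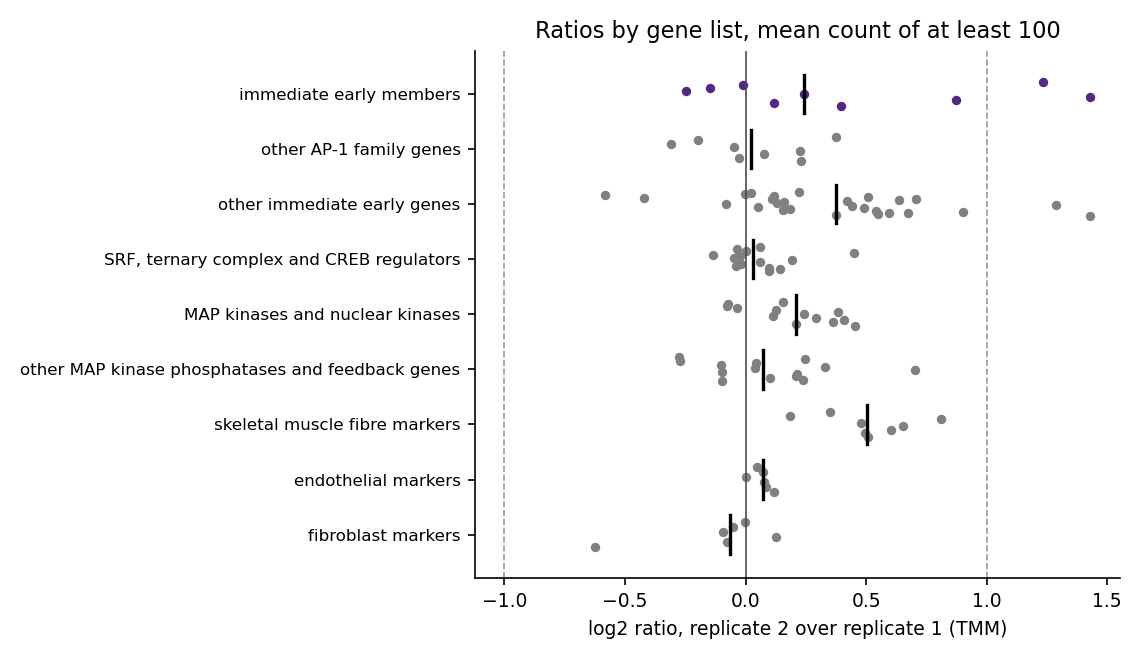
Log2 ratio of replicate 2 over replicate 1 (TMM) for the genes of each list whose mean count was 100 or more, with a black bar at the median of the list and dashed lines at 2-fold. The members (purple) reach from -0.25 to 1.43, while the regulators of serum response factor and CREB lie between -0.13 and 0.45; with spike-in totals the median of all genes shifts down by 0.39.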

How the data were processed

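Total RNA was sequenced in 2 libraries of 1 group. The deposited RSEM-format tables give expected counts per gene and transcript, in which reads shared by transcripts are divided by a model, TPM, the bounds around TPM (a score in TPM units whose confidence level the headers do not give) and the percent of a gene's abundance held by each transcript, per the file headers. The kallisto-format tables deposited beside them give estimated counts and TPM per transcript. The build was mm10 with GENCODE M21, per the text files deposited with the tables; which tools wrote the tables is not given in the sources used here. Of 81881 rows per gene table, 26248 name no gene and held 1.38e-05% and 5e-06% of counts; they were left out, as were 97 spike-in rows except for scaling.

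Expected counts were rounded and scaled by TMM in edgeR 4.0.16 (R 4.3.3), with library totals, DESeq2 1.42.0 size factors and spike-in totals as alternatives, and log2 ratios used a prior count of 0.5. Kallisto-format values were summed per gene. The ratio script was tested on simulated data with 200 changed genes. Python 3.11.15, pandas 2.3.3 and scipy 1.17.1 were used.

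The members and all lists were chosen with earlier results of these data known. Named genes were every member, the 3 highest of each list, every listed gene at least 2-fold apart at a mean count of at least 100, and the 2 nearest in level to the 3 highest members; marker genes are mostly given as counts and sums, and 1 gene that the rule names is not reported here. Fosl1, Fosl2, Nr4a2, Egr2 to Egr4, the genes named at 1.5-fold and most marker genes named singly were chosen after their values were seen. RefSeq promoter windows were matched by symbol for 9 of 10 members, and 3′ UTRs were cut from the M21 transcript with the highest mean share among coding forms. Sequences were taken as listed for the reference strain, not read from these mice.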

Additional observations from a re-analysis of the deposited data

How the results depend on the processing

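The median TPM of the 10 members was 6.5, 10.7 with kallisto-format TPM and 14.2 as TPM over nuclear protein coding genes, and 5.87 to 7.14 in single libraries. The median log2 ratio of the members was 0.18, -0.06 with library totals and -0.21 with spike-in totals. Members at least 2-fold apart numbered 2, but 1 with library totals and 1 with spike-in totals, where Nr4a3 stood at 0.99 and 0.84. The percent of genes at least 2-fold apart was 1.02, 7.15 at a mean count of at least 10, 0.506 at 500 and 28.2 with no filter. The log2 ratio of Jun over Fos family TPM was 2.33, 2.22 with kallisto-format TPM, 1.40 by expected counts and 2.26 to 2.40 in single libraries. The median share of the leading transcript was 77.9%, 57.7% with kallisto-format TPM and 72% to 83.8% in single libraries. The number of members detected was 8, and 9, 6 and 8 at TPM 0.5, at TPM 5 and with kallisto-format TPM. No ratio of a member past 2-fold changed sign. Ratios cannot be recomputed without a replicate. No paired analysis was possible because the series has 1 group. Counting limits Fosb and Nr4a3 most, with 85 and 219 counts in all.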

Other observations

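Antisense genes overlap 2 members of the Jun family. Junos, on the strand opposite to Jun, had 32 and 27 counts, 0.827% and 0.685% of those of Jun, and Gm11175, opposite to Jund, had 24 and 15 counts, 0.94% and 0.475% of those of Jund. Junb overlaps the opposite-strand gene Prdx2, which had 3126 and 3670 counts. All counts of Junb lay in Junb-201, which spans 1809 bases, and Junb-202 had 0 in both libraries. Which form of Junb reaches Prdx2 was not examined. A long form of Dusp1 reaches Ergic1, which had 2921 and 2881 counts. That form, Dusp1-205, had 0 counts in both libraries.

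The balance among immediate early genes within each library differed between the libraries. On the TPM scale the log2 ratio of Nr4a1 over Fos was 0.56 in replicate 1 and 1.84 in replicate 2, that of Nr4a1 over Nr4a2 was 3.3 and 4.44, and that of Dusp1 over Fos 1.51 and 2.08. Egr1 over Fos was 0.16 and -0.3. These ratios are taken within a library and need no scaling between libraries.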
